A study of Mus musculus with 23 samples.

Results

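The response of whole B16F10 melanomas to an Nr2f6-targeting guide, sg495, was set against the response of tumor cells purified from such tumors, so that the host share of the response could be read apart from that of the melanoma cells. For each gene the quantity was a difference of differences on the log2(TPM + 1) scale, namely sg495 minus control in bulk tumors less sg495 minus control in sorted tumor cells. TPM is a relative transcript level corrected for gene length and library size. A value above 0 is called a larger sg495 effect in bulk tumors, and a value below 0 a smaller one, with the sign included. A gene that fell less in bulk than in sorted cells thus also has a value above 0. Of 47643 genes in the table, the comparison held the 13456 whose average over its 8 libraries (of 23) reached 1 TPM. The choice used levels only and not the difference.

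B16F10 is a pigmented melanoma line of C57BL/6 origin that engrafts in C57BL/6 mice with intact immunity. The 4 groups were bulk tumors and sorted tumor cells from control cells, which the labels call WT, and bulk tumors and sorted tumor cells from cells given sg495, which the labels call NR2F6 KO, with 2 libraries in each. The knockout cells were made by transfection of Cas9 protein with a dye-marked guide and collection of the dye-positive cells. The study checked the knockout by immunoblotting and by sequencing at the guide sites. The study's methods describe subcutaneous growth in young adult male C57BL/6 mice, and no treatment was given in these 4 groups. Sorted cells had been through collagenase digestion and magnetic depletion of stromal cells, steps that bulk tumors did not undergo. The sources used here do not say whether the 2 libraries of a group came from separate animals, and p-values therefore measure only the spread between these libraries. With 2 libraries against 2, an exact permutation test of a single gene cannot give p below 0.333, so the tests rest on the limma fit across all genes.

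Interferon-γ, released mainly by activated T and natural killer cells, binds a receptor found on most cells and acts in part through the transcription factor IRF1. Among the genes it induces are those for MHC class I and class II presentation, the immunoproteasome and the GTPases of the GBP and IRG families. Some immune cells, such as dendritic cells, express class II constitutively, whereas most tumor cells do so only after induction. In whole tissue, a change in such a gene can come from host cells, tumor cells or both, and in bulk RNA a larger number of cells of a type and more RNA per cell cannot be told apart.

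Nr2f6, the nuclear receptor that sg495 targets, was measured at 25.8 and 25.2 TPM in bulk control, 17.2 and 15.8 TPM in bulk sg495, 20.3 and 17.7 TPM in sorted control, and 10.6 and 12.2 TPM in sorted sg495. Both sg495 groups lay below their controls, and the transcript was reduced rather than absent. These libraries do not measure the protein. The log2 difference between the effects was 0.09 ± 0.16 (SE; adjusted p = 0.867). Genes of at least 1 TPM numbered 12577 to 13899 per library, mitochondrial genes took 3.82% to 8.02% of TPM, the highest in sorted sg495 replicate 1, and replicates correlated at 0.973 to 0.985 over genes. The 14 melanocyte genes summed to 16437 to 19198 TPM in every library, so bulk and sorted samples both carried the labelled cell type. The 22 genes of the pan-leukocyte list, some of them mainly myeloid, summed to 303 to 772 TPM in bulk libraries, 64.9 and 70.7 TPM in sorted control, and 84.2 and 95.3 TPM in sorted sg495. The 20 macrophage and monocyte genes summed to 448 to 967 TPM in bulk libraries, 7.86 and 10.01 TPM in sorted control, and 20.9 and 21.1 TPM in sorted sg495. Both sums were thus higher in sorted sg495 than in sorted control without overlap, and their part in the sorted sg495 effects was not tested. Medians over the members overlapped between these groups. For pan-leukocyte genes they were 0.285 and 0.33 TPM in sorted control and 0.28 and 0.475 TPM in sorted sg495. For macrophage and monocyte genes they were 0.025 and 0 TPM in sorted control and 0.01 and 0.04 TPM in sorted sg495. Ptprc, the CD45 gene, was at 0.15 TPM or less in every sorted library. Bulk control replicate 1 was above replicate 2 for every interferon list, with sums of 599 and 184 TPM for the immunity-related GTPases, and sorted control showed the same order, with 33.3 and 6.29 TPM.

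Across the 13456 genes, the difference passed the test (adjusted p below 0.05 and at least 1.5-fold) for 1 gene with a larger effect in bulk tumors (0.00743%) and 1 with a smaller effect (0.00743%), both small RNA genes at 0 TPM in 6 of the 8 libraries, described in the closing section. At an unadjusted p below 0.05 the counts were 1171 larger (8.70%) and 292 smaller (2.17%), and 8758 of the 13456 genes had a difference above 0. The median difference over all genes was 0.09, and 0.01 after median-of-ratios scaling, so a shift of this size in a list is that of the average gene. Within sorted tumor cells alone, 140 genes passed as higher with sg495 (1.04%) and 65 as lower (0.483%), at the same adjusted p and fold. By sign alone, 5901 of the 13456 genes were higher. Of those 65, 40 lie on chromosome 8, which also holds Nr2f6. The 701 genes tested on chromosome 8 had a median effect of -0.25 in bulk and -0.34 in sorted cells, and a median difference of 0.08, close to that of all genes. Within bulk tumors alone, 6 genes passed as higher (0.0446%) and 2 as lower (0.0149%), although 1332 (9.90%) were higher at an unadjusted p below 0.05. Of the 6, 3 were unnamed models or small RNA genes at 0 TPM outside bulk sg495. These 3 reached the level for testing only through the group that makes their effect. When all 18 libraries of the study's 3 sample types, cultured cells and the second guide sg492 included, shared 1 estimate of the spread, the same differences passed for 10 genes in the larger direction (0.0743%) and 8 in the smaller (0.0595%). That fit assumes an equal spread in cultured cells, which hold no host cells, and in tumors, and this assumption was not tested. Calls from it are given below as the fit of 18 libraries, beside the adjusted p of the 8 libraries.

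**Figure D1:**
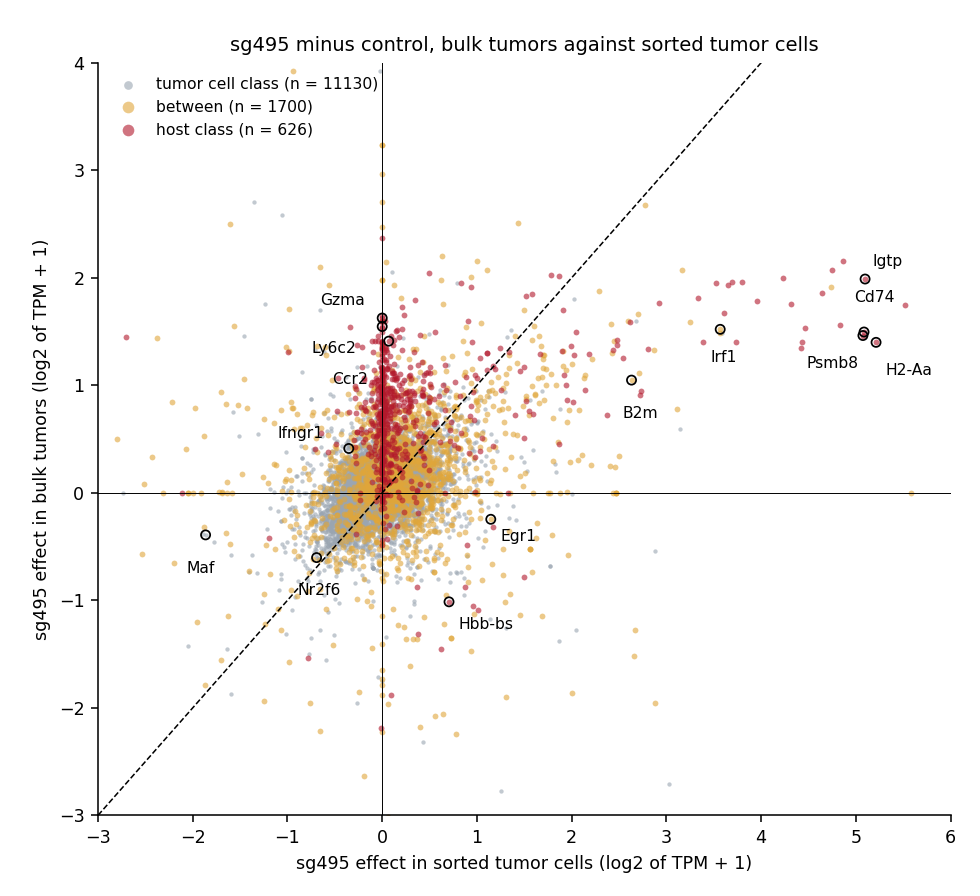
Effect of sg495 in bulk tumors (vertical axis) against its effect in sorted tumor cells (horizontal axis), each as a difference of mean log2(TPM + 1), 1 point per gene. Points above the dashed line of equal effects have a larger effect in bulk, sign included. Colors give the class of a gene in libraries outside the comparison, and 10 genes fall outside the axes. H2-Aa lies far to the right with effects of 5.21 in sorted cells and 1.40 in bulk, whereas Gzma lies on the vertical axis.

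MHC class II genes responded unevenly between sample types. Of the 12 genes of this list 9 reached the level for testing, and 6 of the 9 had a smaller sg495 effect in bulk at an unadjusted p below 0.05, against 2.17% of all genes. The list median was 1.40 in bulk, 3.39 in sorted cells and -1.99 for the difference, with 6 genes below 0 and 3 above. H2-Aa, the class II α chain, was measured at 182 and 81.7 TPM in bulk control and at 303 and 346 TPM in bulk sg495. In sorted cells it went from 0.98 and 0.10 TPM in control to 53.7 and 53.8 TPM with sg495. The groups did not overlap in either sample type, and sorted sg495 cells remained below both bulk controls. The sg495 effect was 5.21 ± 0.38 (SE) in sorted cells (adjusted p = 0.00387) and 1.40 ± 0.38 in bulk tumors (adjusted p = 0.16). The difference of -3.81 ± 0.54 had an adjusted p of 0.207, and of 0.00339 in the fit of 18 libraries.

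Another 5 members, namely H2-Ab1, H2-Eb1, Cd74, H2-DMa and H2-DMb1, also had values below 0, whereas Ciita, Ctss and H2-DMb2 lay above 0. H2-Ab1, the β chain, had means of 76.8 and 214 TPM in bulk and 0.25 and 26.2 TPM in sorted cells for control and sg495, and a difference of -2.93 ± 0.42. H2-Eb1, a second β chain, had a difference of -3.03 ± 0.43. Cd74, the invariant chain that escorts class II through the cell, was at 281 and 140 TPM in bulk control, 521 and 606 TPM in bulk sg495, 2.18 and 1.39 TPM in sorted control, and 92.4 and 92.9 TPM in sorted sg495. Its difference of -3.59 ± 0.42 had the lowest adjusted p of any list member, 0.123, and passed in the fit of 18 libraries (adjusted p = 0.00339), as did H2-Ab1 (0.00344), H2-Eb1 (0.0205) and H2-DMa (0.0415). H2-DMa, whose product loads peptide onto class II, had a difference of -1.99 ± 0.31. All of these genes rose in sorted cells. Ciita, the transactivator of class II, stayed low, with means of 1.77 TPM in bulk control, 5.76 TPM in bulk sg495, 0.02 TPM in sorted control and 1.43 TPM in sorted sg495, and its difference was 0.11 ± 0.45. Ctss, the cathepsin that trims the invariant chain and is abundant in myeloid cells, was at 117 to 303 TPM in bulk libraries and at most 1.16 TPM in sorted ones, with 0.33 and 0.35 TPM in sorted control and 1.12 and 1.16 TPM in sorted sg495.

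MHC class I and peptide loading genes differed in the same direction by less. Of 17 genes tested, 12 had a smaller and 1 a larger effect in bulk at an unadjusted p below 0.05. Over all genes these shares were 2.17% and 8.70%. The list median was -1.04. In sorted cells all 17 were higher by sign, and 16 passed as higher, against 1.04% of all genes. Psmb8, an immunoproteasome subunit, was measured at 51.9 and 19.1 TPM in bulk control, 89.9 and 87.7 TPM in bulk sg495, 1.22 and 0 TPM in sorted control, and 42.0 and 57.6 TPM in sorted sg495. Only sorted control was near 0, and the other sorted group reached the range of bulk tumors. Its difference was -3.61 ± 0.70 (adjusted p = 0.361, and 0.0294 in the fit of 18 libraries). Psmb9, another such subunit, differed by -3.28 ± 0.83 and Tap1, a subunit of the peptide transporter, by -3.08 ± 0.81, neither past the test in either fit. B2m, the light chain of class I, started higher, at 344 and 238 TPM in sorted control, reached 1518 and 2086 TPM in sorted sg495, and was at 1180 and 739 TPM in bulk control and 2052 and 1819 TPM in bulk sg495. Sorted and bulk sg495 libraries overlapped for B2m, and the difference was -1.58 ± 0.38 (adjusted p = 0.408). H2-D1 and H2-K1, the classical heavy chains, differed by -1.59 ± 0.35 and -0.97 ± 0.35. The exception was H2-Q7, a nonclassical class I gene, which was at most 0.31 TPM in every sorted library, was at 13.7 and 7.10 TPM in bulk control and 27.2 and 30.4 TPM in bulk sg495, and had a difference of 1.27 ± 0.41. Class I genes are near-identical in places, so reads may have been shared among them. Without bulk control replicate 1 the list median was -0.60.

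**Figure D2:**
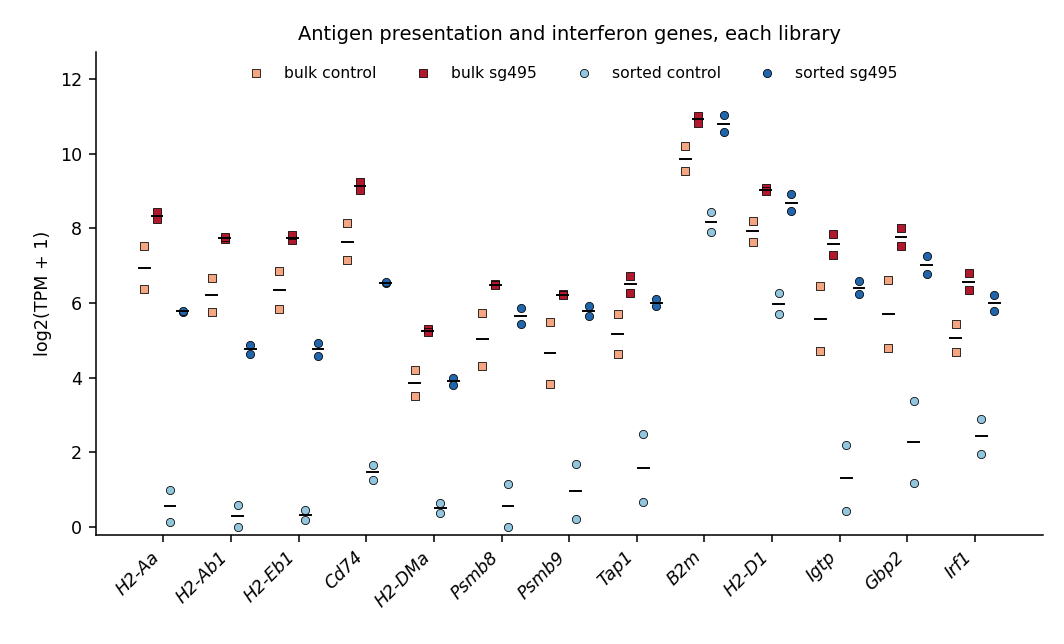
Level of 13 presentation and interferon genes in each library as log2(TPM + 1), with squares for bulk tumors, circles for sorted tumor cells and bars for the mean of 2 libraries. For H2-Aa the 2 sorted sg495 circles sit below both bulk control squares, whereas for Psmb8, Tap1 and B2m they lie within or above the range of bulk control.

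GTPases of both families formed the next group. All 12 immunity-related GTPases were tested, and 6 had a smaller effect in bulk at an unadjusted p below 0.05, against 2.17% of all genes. In sorted cells all 12 were higher by sign, and 9 passed as higher, against 1.04% of all genes. The list median was -2.01. Igtp, which acts at the membranes that enclose intracellular pathogens, was measured at 86.2 and 25.3 TPM in bulk control, 229 and 156 TPM in bulk sg495, 3.61 and 0.35 TPM in sorted control, and 95.5 and 74.6 TPM in sorted sg495. Controls of both sample types were spread more widely than the sg495 libraries. Its difference was -3.11 ± 0.96 (adjusted p = 0.408). Tgtp2 differed by -3.78 ± 1.25, although Tgtp1 and Tgtp2 are near-identical copies whose reads cannot be assigned with certainty. Of 10 guanylate-binding protein genes tested, 2 had a smaller and 1 a larger effect in bulk at an unadjusted p below 0.05. Over all genes these shares were 2.17% and 8.70%. The list median of -1.15 became -0.28 without bulk control replicate 1, -1.81 without bulk control replicate 2 and -1.80 without bulk sg495 replicate 1. It was -0.58 without the level filter, -1.73 at 5 TPM and -2.61 with a pseudocount of 0.1. Gbp2 was at 97.2 and 26.6 TPM in bulk control, 259 and 185 TPM in bulk sg495, 9.29 and 1.26 TPM in sorted control, and 152 and 109 TPM in sorted sg495, with a difference of -2.68 ± 1.09 (adjusted p = 0.451) that was -1.58 without sorted control replicate 2. Gbp2b, the one gene with a larger effect in bulk, was at 0 TPM in all 4 sorted libraries.

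Promoters of genes with these unlike levels but the same direction are shown because 2 short elements that respond to interferon are read from them, the ISRE (GAAA, any 2 bases, GAAA) and the GAS element (TTC, any 3 bases, GAA), both searched on both strands from 250 bases before to 50 after the start. The 2 patterns can overlap. An ISRE was found for 3.79% and a GAS element for 8.36% of the 9364 tested genes with a promoter in the table, and either for 11.6%. Either was found for 7 of the 9 immunity-related GTPases, 5 of the 5 guanylate-binding proteins, 14 of the 23 antiviral genes, 5 of the 14 class I genes and 2 of the 8 class II genes in the table, and for 5 of the 14 cytotoxic and natural killer genes, 2 of the 14 macrophage and monocyte genes and 2 of the 17 pan-leukocyte genes. A match describes the letters only. The sequences below are from RefSeq on GRCm38.p6, 5′ to 3′ in the direction of the gene, with matches in capitals.
Igtp (chr11:58199306-58199605, plus strand): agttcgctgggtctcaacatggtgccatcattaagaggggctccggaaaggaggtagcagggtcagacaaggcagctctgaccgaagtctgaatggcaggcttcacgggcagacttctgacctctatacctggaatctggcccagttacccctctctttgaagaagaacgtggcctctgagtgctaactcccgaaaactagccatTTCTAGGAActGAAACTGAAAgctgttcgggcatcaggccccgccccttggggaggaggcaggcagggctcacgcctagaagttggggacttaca
Gbp2 (chr3:142620413-142620712, plus strand): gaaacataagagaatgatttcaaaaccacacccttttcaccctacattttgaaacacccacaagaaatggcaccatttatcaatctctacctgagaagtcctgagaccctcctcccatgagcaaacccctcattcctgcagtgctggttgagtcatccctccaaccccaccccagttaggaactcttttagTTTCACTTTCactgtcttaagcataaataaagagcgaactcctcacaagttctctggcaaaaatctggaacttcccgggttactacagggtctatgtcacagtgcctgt
Psmb8 (chr17:34197945-34198244, plus strand): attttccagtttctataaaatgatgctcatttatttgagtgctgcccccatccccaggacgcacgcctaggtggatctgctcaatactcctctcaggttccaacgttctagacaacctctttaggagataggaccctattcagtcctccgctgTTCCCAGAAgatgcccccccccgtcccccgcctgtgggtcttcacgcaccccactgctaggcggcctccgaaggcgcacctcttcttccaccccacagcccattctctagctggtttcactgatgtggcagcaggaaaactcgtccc
H2-Aa (chr17:34287774-34288073, minus strand): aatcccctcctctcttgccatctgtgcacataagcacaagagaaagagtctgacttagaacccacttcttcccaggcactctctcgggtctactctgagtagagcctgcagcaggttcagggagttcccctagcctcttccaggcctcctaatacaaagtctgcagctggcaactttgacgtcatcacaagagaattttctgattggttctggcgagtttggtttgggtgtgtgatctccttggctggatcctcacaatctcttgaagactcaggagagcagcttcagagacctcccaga
Igtp held both elements, Gbp2 an ISRE alone, Psmb8 a GAS element alone and H2-Aa neither, and all 4 rose in sorted cells. The genes themselves span chr11:58199556-58207591 (Igtp), chr3:142620602-142638008 (Gbp2), chr17:34197721-34201454 (Psmb8) and chr17:34282744-34287823 (H2-Aa) in GENCODE M21 on GRCm38, whose gene starts can differ from those of RefSeq.

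Among signaling genes, Irf1, the factor that carries the interferon-γ signal to class I and class II genes, was at 42.2 and 24.6 TPM in bulk control, 111 and 80.5 TPM in bulk sg495, 6.4 and 2.91 TPM in sorted control, and 73.3 and 53.7 TPM in sorted sg495. Both sorted controls lay below every other library, and sorted sg495 cells exceeded both bulk controls. The difference was -2.05 ± 0.51 (adjusted p = 0.408). Ifngr1, the ligand-binding chain of the receptor, went the other way, at 21.5 and 23.6 TPM in bulk control, 30.4 and 30.2 TPM in bulk sg495, 16.6 and 16.7 TPM in sorted control, and 13.1 and 12.5 TPM in sorted sg495. Its groups did not overlap in either sample type and lay in opposite order. The difference was 0.77 ± 0.12 (adjusted p = 0.274, and 0.0306 in the fit of 18 libraries). Jak2, a kinase at that receptor, differed by 0.45 ± 0.18 and Irf2, which binds the same sites as IRF1, by 0.64 ± 0.23, whereas Irf9, part of the type I interferon complex, differed by -0.83 ± 0.29. Over the 18 regulators tested the median was 0.07, and it ranged from -0.22 to 0.22 with 1 library left out. At an unadjusted p below 0.05, 3 were larger and 2 smaller, against 8.70% and 2.17% of all genes. Cd274, which encodes PD-L1, had means of 5.48 and 14.2 TPM in bulk and 6.24 and 22.4 TPM in sorted cells, rose in sorted cells, and differed by -0.41 ± 0.38 (adjusted p = 0.727).

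The 32 antiviral interferon-stimulated genes, which answer type I interferon as well, responded more evenly. Their median was 1.00 in bulk and 1.31 in sorted cells. In sorted cells 31 of the 32 were higher by sign, and 16 passed as higher, against 1.04% of all genes. The median difference of -0.25 depended on single libraries. It was 0.01 without bulk control replicate 1, -0.07 without sorted control replicate 2, -0.58 without sorted control replicate 1, -0.54 without bulk control replicate 2, and -0.43 without bulk sg495 replicate 1 or sorted sg495 replicate 2. Zbp1, a sensor of nucleic acids, had the lowest value, -2.17 ± 0.72, and Epsti1, listed at 0 to 0.22 TPM in sorted libraries, the highest, 1.07 ± 0.36. Bst2, which tethers virus particles, was at 158 and 109 TPM in bulk control, 276 and 225 TPM in bulk sg495, 47.0 and 42.2 TPM in sorted control, and 126 and 152 TPM in sorted sg495, and differed by -0.70 ± 0.27. Rsad2, which blocks viral replication, differed by -0.58 ± 0.24. Zbp1, Bst2 and Rsad2 were the 3 members with a smaller effect in bulk at an unadjusted p below 0.05. Epsti1 was the 1 with a larger effect. Over all genes the smaller and larger shares were 2.17% and 8.70%.

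The sign of these differences depended on the scale. A log difference compares ratios, and sorted controls were low, so a small addition was a large ratio. H2-Aa gained 192 TPM in bulk and 53.2 TPM in sorted cells, and Cd74 gained 353 and 90.9 TPM, so that in TPM the difference was 139 for H2-Aa and 262 for Cd74, above 0. For Psmb8 the gains were 53.3 and 49.2 TPM, for Tap1 53.7 and 61.1 TPM, and for Irf1 62.2 and 58.9 TPM. B2m gained 976 TPM in bulk and 1511 TPM in sorted cells. Class II genes thus gained more transcript in bulk tumors, and B2m more in sorted cells, whereas gains were of like size for Psmb8, Tap1 and Irf1. These TPM values have no test. Over the 80 distinct genes tested of the antiviral, class I, class II, GBP and IRG lists, 63 had a log difference below 0, 68 a TPM difference above 0, and 51 both, while over all genes the signs differed between scales for 5.34%. The bulk level of H2-Aa was 244 times the sorted level in control and 6.03 times with sg495. The ratio fell from 118 to 6.08 for Cd74, from 58.2 to 1.78 for Psmb8 and from 3.30 to 1.07 for B2m, so that of these 4 genes B2m was the nearest to an equal level in both sample types.

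The sg492 libraries, which do not enter the comparison, gave an outside measure of how far a gene's level in bulk tumors exceeds that in sorted cells. Over the 80 genes the difference of the sg495 effects correlated with that excess at a Pearson r of -0.668 and a Spearman rho of -0.635, as a description across genes that share all libraries. The 34 genes with an excess of 3 or more log2 units had a median difference of -2.04, from a median effect of 1.54 in bulk and 3.72 in sorted cells. The 41 genes with an excess of 1 to 3 had a median of -0.45, and the 5 below 1 a median of 0.15. Bulk medians thus ranged over 0.63 to 1.54 across these 3 groups, and sorted medians over 0.51 to 3.72.

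Leukocyte genes had the opposite pattern, with larger effects in bulk tumors. Of the 22 pan-leukocyte genes all were tested, all had a difference above 0, and 13 had a larger effect at an unadjusted p below 0.05 and none a smaller one, against 8.70% and 2.17% of all genes. The list median was 0.94, with 0.99 in bulk and 0.10 in sorted cells, and it was 0.63 without bulk control replicate 2. Ptprc was at 9.29 and 5.74 TPM in bulk control, 18.2 and 26.2 TPM in bulk sg495, 0 and 0.03 TPM in sorted control, and 0.15 and 0.02 TPM in sorted sg495. The bulk groups did not overlap and the sorted groups did, so the difference of 1.36 ± 0.37 (adjusted p = 0.408) restated the bulk effect of 1.46. Lcp2, an adaptor of antigen receptor signaling, differed by 1.40 ± 0.36, Spi1, a master factor of myeloid cells, by 1.24 ± 0.30, and Itgam, the CD11b integrin, by 1.08 ± 0.34. Lcp1, an actin bundler that sorted cells also held at 26.8 to 47.5 TPM, differed by 0.08 ± 0.26. The 4 adjusted p-values for Lcp2, Spi1, Itgam and Cybb, the NADPH oxidase chain with a difference of 1.27 ± 0.36, were all 0.408, and no gene of the list passed the test in either fit.

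Macrophage and monocyte genes were uneven. Of 19 tested, 16 lay above 0, against 8758 of all 13456 genes, with a median of 0.62. At an unadjusted p below 0.05, 9 had a larger effect in bulk, against 8.70% of all genes. Ly6c2 and Ccr2, markers of inflammatory monocytes, had the highest values. Ly6c2 was at 17.4 and 8.35 TPM in bulk control, 31.5 and 44.3 TPM in bulk sg495 and 0 TPM in all sorted libraries, with a difference of 1.55 ± 0.45. Ccr2, the chemokine receptor of those cells, was at 6.60 and 5.34 TPM in bulk control, 14.0 and 21.7 TPM in bulk sg495 and at most 0.10 TPM in sorted cells, with a difference of 1.34 ± 0.34. For both, bulk sg495 libraries lay above both bulk controls. Adgre1 (F4/80) and Csf1r, which mark macrophages, differed by 1.29 ± 0.37 and 1.12 ± 0.29. Lower values were found for Trem2 (0.41 ± 0.29), a lipid receptor of mature macrophages, and for Arg1 (-0.28 ± 0.31) and Cd14 (-0.37 ± 0.34), whose bulk groups overlapped. Lyz2, lysozyme, was at 280 and 226 TPM in bulk control, 414 and 443 TPM in bulk sg495, and 0.35 to 0.82 TPM in sorted libraries. The Lyz2 difference was 0.48 ± 0.18. Cd68 and Fcgr2b were at 3.62 to 12.1 TPM and 2.99 to 9.17 TPM in sorted libraries, with differences of -0.25 ± 0.36 and 0.06 ± 0.31.

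**Figure D3:**
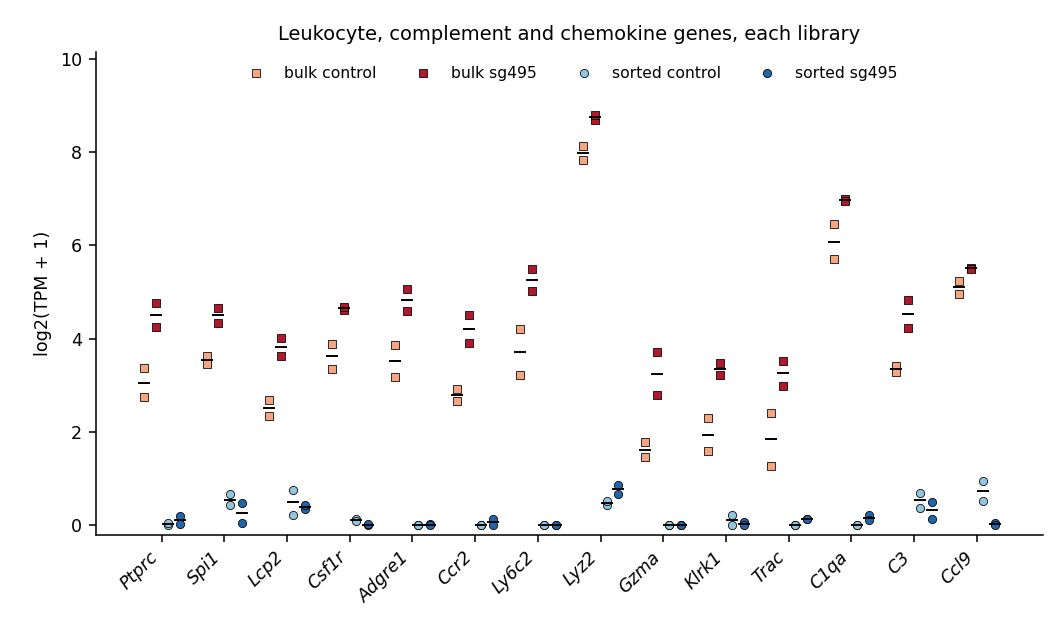
Level of 14 leukocyte, complement and chemokine genes in each library as log2(TPM + 1), with squares for bulk tumors, circles for sorted tumor cells and bars for the mean of 2 libraries. Sorted circles lie at or near 0 throughout, and bulk sg495 squares lie above both bulk control squares for each gene shown, as for Ptprc at 18.2 and 26.2 TPM against 9.29 and 5.74 TPM.

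Cytotoxic and natural killer genes had a median of 1.40 over the 8 of 16 genes tested and of 0.97 without the level filter. Several of the 8, Gzma among them, reached the level for testing mainly through bulk sg495, so their count above 0 supports nothing. Gzma, a granzyme, was at 1.74 and 2.46 TPM in bulk control, 5.89 and 12.1 TPM in bulk sg495 and 0 TPM in all sorted libraries, with a difference of 1.63 ± 0.46 (adjusted p = 0.408). Klrk1, the NKG2D receptor, differed by 1.48 ± 0.39, Klrd1, its CD94 relative, by 1.41 ± 0.44, and Prf1, perforin, by 1.27 ± 0.47. Levels were low and Ifng itself did not reach the level for testing. Without bulk control replicate 2, the lower of the 2 for most of these genes, the median was 0.87. Of 26 T cell genes 11 were tested, with a median of 0.93 (0.80 without the level filter) that became 0.33 without bulk control replicate 2 and 1.45 without bulk control replicate 1. Trac, the constant region of the T cell receptor α chain, was at 4.31 and 1.41 TPM in bulk control, 6.96 and 10.6 TPM in bulk sg495 and at most 0.09 TPM in sorted cells, and differed by 1.3 ± 0.54. Cd2, an adhesion receptor of T and natural killer cells, differed by 1.36 ± 0.36, whereas for Cd8a (0.84 ± 0.62) and Cd3g (0.14 ± 0.48) the bulk groups overlapped. The 8 dendritic cell genes tested, of 14, had a median of 0.77 (0.67 without the level filter), and Itgax, the CD11c integrin, differed by 0.97 ± 0.29. Of B cell genes, Ighm, the immunoglobulin μ chain, differed by 1.38 ± 0.34 and Cd79a by -0.46 ± 0.33, and the other 8 were not tested. The 5 granulocyte genes tested had a median of -0.35, and S100a8 and S100a9, the calprotectin chains of neutrophils, differed by -0.94 ± 1.08 and -1.25 ± 0.77 with bulk control replicate 1 the highest library for both, and the list median ranged from -1.15 to 0.22 with 1 library left out.

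Of 16 chemokines tested 15 lay above 0, against 8758 of all 13456 genes, with a median of 0.61 (0.38 without bulk control replicate 2). A larger effect at an unadjusted p below 0.05 was found for 2 of the 16, a share near the 8.70% of all genes. Ccl9, made by myeloid cells, was at 36.9 and 30.2 TPM in bulk control, 44.6 and 44.4 TPM in bulk sg495, 0.43 and 0.93 TPM in sorted control, and 0.03 and 0 TPM in sorted sg495, with a difference of 1.12 ± 0.25 (adjusted p = 0.408). Ccl8, which attracts monocytes and T cells, rose in bulk from 88.2 and 79.6 TPM to 180 and 164 TPM (effect 1.03 ± 0.11, adjusted p = 0.0387) and rose in sorted cells from 0 TPM to 0.69 and 0.72 TPM, so its difference was 0.26 ± 0.15. Cxcl9, an interferon-γ-induced ligand of T cells, differed by 0.98 ± 0.54. Cxcl10, of the same class, was at 78.9 and 49.4 TPM in bulk control, 155 and 150 TPM in bulk sg495, 42.4 and 56.0 TPM in sorted control, and 75.7 and 89.0 TPM in sorted sg495, and differed by 0.53 ± 0.31 (adjusted p = 0.561), or by 0.20 without bulk control replicate 2 and 0.86 without bulk control replicate 1. Of 14 complement genes tested, C3 differed by 1.38 ± 0.36 and C4b by -1.0 ± 0.33, and the median was 0.44. That median was 0.23 without bulk control replicate 2 and -0.03 with a pseudocount of 0.1. C3, the central component, was at most 0.62 TPM in sorted cells and at 9.72, 8.68, 17.7 and 27.3 TPM in bulk control and sg495 libraries. C4b, which feeds the C3 convertase, was at 7.84 and 3.95 TPM in sorted control, 39.8 and 38.2 TPM in sorted sg495, 17.8 and 16.4 TPM in bulk control, and 53.1 and 53.8 TPM in bulk sg495, and rose in sorted cells. C1qa, C1qb and C1qc, macrophage products, differed by 0.73, 0.57 and 0.64.

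Stromal lists were unlike each other. Of 19 fibroblast and matrix genes tested, 18 lay above 0, against 8758 of all 13456 genes, with a median of 0.54 and 4 larger at an unadjusted p below 0.05, against 8.70% of all genes. Col3a1, a fibrillar collagen, was at 189 and 169 TPM in bulk control, 257 and 478 TPM in bulk sg495 and at most 1.54 TPM in sorted cells, and bulk sg495 replicate 2 was the high library. The list median was 0.32 without that library and 0.84 without bulk sg495 replicate 1. Serpinf1, an antiangiogenic factor that the tumor cells themselves express, fell in sorted cells from 95.1 and 83.5 TPM to 41.4 and 46.7 TPM, and differed by 0.55 ± 0.15 (adjusted p = 0.408). The 15 endothelial genes had a median of 0.12 and the 9 of pericytes and smooth muscle 0.18, near the 0.09 of all genes. Vwf, the von Willebrand factor of endothelium, was the 1 endothelial gene with an unadjusted p below 0.05, with a difference of -0.86 ± 0.27 and 13.4 to 19.2 TPM in sorted libraries, which therefore expressed it too. The list of adjacent tissue, which holds red cell genes, had a median of -0.73 over 11 genes, from -1.57 without sorted sg495 replicate 1 to 0.02 without sorted sg495 replicate 2. Hbb-bs, a β-globin, was at 661 and 227 TPM in bulk control, 290 and 127 TPM in bulk sg495, 2.88 and 2.20 TPM in sorted control, and 1.03 and 15.3 TPM in sorted sg495. Groups overlapped in both sample types, the difference was -1.72 ± 1.33, and the globin genes are near-identical copies. Bulk control replicate 1 had the highest globin levels.

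By level outside the comparison, 626 genes formed a host class, with a bulk level at least 8 times the sorted level in the sg492 libraries and under 1 TPM in control cultured cells. A tumor cell class of 11130 genes was expressed in culture and lay within 2-fold between sg492 bulk and sorted libraries, and 1700 genes were in between. The median difference was 0.54 in the host class, 0.09 in the tumor cell class and 0.00 in between. At an unadjusted p below 0.05, 163 host class genes (26%) were larger and 26 (4.15%) smaller. Over all genes these shares were 8.70% and 2.17%. Levels of the host class had a median of 3.94 TPM in bulk control and 0.04 TPM in sorted control. Low members thus reached the level for testing mainly through bulk tumors, bulk sg495 included. The median and shares of this class are therefore not independent of the filter. The host class median effect was 0.76 in bulk and 0.05 in sorted cells. The class also holds presentation genes such as H2-Aa, Psmb8 and Igtp, which sorted sg495 cells expressed. In the 121 host class genes at 1 TPM or more in sorted sg495 the median difference was -0.65, and in the other 505 it was 0.66, a split that uses a group of the comparison itself. In TPM, 89.9% of the host class had a difference above 0, against 65.3% of all genes.

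**Figure D4:**
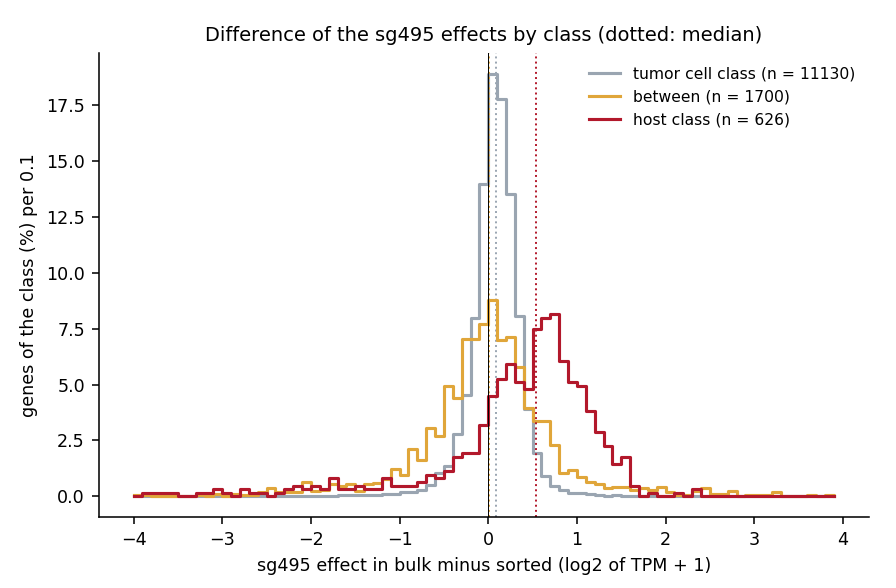
Distribution of the difference of sg495 effects in log2 units for the 3 classes of genes, as the percent of a class in each bin of 0.1. The host class has its median at 0.54 and a tail below -1, whereas the tumor cell class is narrow around its median of 0.09. Host class genes with low levels reached the level for testing mainly through bulk tumors.

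Single genes with the lowest p in the larger direction were mostly opposite in sign between sample types. Most were of the tumor cell class, which holds 82.7% of all genes tested. None passed in the 8 libraries. Ap3m1, a subunit of the AP-3 adaptor that sorts cargo to lysosomes and melanosomes, was at 60.8 and 59.8 TPM in bulk control, 66.4 and 69.2 TPM in bulk sg495, 80.9 and 82.6 TPM in sorted control, and 55.3 and 55.3 TPM in sorted sg495. It fell in sorted cells without a fold of 1.5, and its difference was 0.72 ± 0.09 (adjusted p = 0.143, and 0.00339 in the fit of 18 libraries). Ifi30, a lysosomal thiol reductase of class II processing that lies on chromosome 8, was at 120 and 110 TPM in bulk control, 135 and 140 TPM in bulk sg495, 79.3 and 74.3 TPM in sorted control, and 51.9 and 54.6 TPM in sorted sg495. Its difference of 0.77 ± 0.10 (adjusted p = 0.203, and 0.00339) was thus opposite in sign to that of the class II chains. Maf, a transcription factor on chromosome 8, had means of 11.7 and 8.75 TPM in bulk and 11.1 and 2.33 TPM in sorted cells, fell in sorted cells (-1.86 ± 0.16), and differed by 1.47 ± 0.22 (adjusted p = 0.218, and 0.0103). Mpp1, a membrane scaffold, differed by 0.96 ± 0.15 (0.235, and 0.0256), and Eif2b4, a subunit of a translation initiation factor, by 0.89 ± 0.13 (0.218, and 0.0294). Dusp18, a phosphatase, differed by 0.69 ± 0.11, past the test in neither fit. The fit of 18 libraries also passed Mmgt1 (0.62), Anxa6 (0.71) and Prelp (1.63), which were chosen after their values were seen, and Gm22431, a gene for a small RNA. Gm22431 was at 0 TPM outside bulk sg495 and reached the level for testing only through that group.

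In the smaller direction, genes outside antigen presentation included markers of cell handling. Egr1, an immediate early gene, was at 8.50 and 9.77 TPM in bulk control, 8.67 and 6.52 TPM in bulk sg495, 33.1 and 44.5 TPM in sorted control, and 78.6 and 94.6 TPM in sorted sg495, and differed by -1.39 ± 0.26 (adjusted p = 0.361, and 0.0462 in the fit of 18 libraries). It rose in sorted cells. The 17 immediate early and dissociation genes summed to 436 to 489 TPM in bulk and 1736 to 2846 TPM in sorted libraries, the highest being sorted sg495 replicate 2. Hspa1b, a heat shock chaperone, was at 38.1, 45.5, 71.0 and 300.2 TPM in the sorted control and sg495 libraries, the last in that library, and at 6.57 to 12.5 TPM in bulk. Of 16 such genes tested 4 had a smaller effect in bulk at an unadjusted p below 0.05, against 2.17% of all genes. The median of -0.47 became -0.14 without sorted sg495 replicate 2 and -0.77 without sorted sg495 replicate 1. The part of cell handling in the differences of other genes was not tested. Spp1, osteopontin, a macrophage and tumor cytokine, was at 60.9 to 83.2 TPM in bulk libraries of both groups, rose in sorted cells from 0.99 and 0.96 TPM to 3.50 and 4.45 TPM, and differed by -1.33 ± 0.23 (adjusted p = 0.334). Pam16, a subunit of the mitochondrial import motor, had means of 23.2 and 12.9 TPM in bulk and 12 and 22.5 TPM in sorted cells and differed by -1.66 ± 0.27 (adjusted p = 0.274). Hist1h2ad, a histone gene near-identical to others, was at 0 TPM but for 4.86 and 4.0 TPM in sorted sg495, and its reads cannot be assigned with certainty. It reached the level for testing only through the group that makes its difference.

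Lists of genes that the melanoma cell itself expresses had medians of at most 0.20. The 14 melanocyte genes had a median difference of -0.01, and values from -0.25 to 0.24. The 16 cell cycle genes had a median difference of 0.20, from medians of -0.02 in bulk and -0.22 in sorted cells. That difference was 0.11 after median-of-ratios scaling. Of the 16, 15 lay above 0, against 8758 of all 13456 genes. At an unadjusted p below 0.05, 4 were larger, against 8.70% of all genes. Rrm2, a ribonucleotide reductase subunit, fell in sorted cells from 287 and 280 TPM to 210 and 221 TPM without a fold of 1.5, was at 418, 426, 403 and 410 TPM in bulk control and sg495, and differed by 0.34 ± 0.09 (adjusted p = 0.408). The 17 hypoxia and glycolysis genes had a median of 0.06, from -0.13 to 0.25 with 1 library left out. Nacc1, a transcription regulator that the study follows and that lies on chromosome 8, was at 74.2 and 75.2 TPM in bulk control, 47.6 and 47.8 TPM in bulk sg495, 61.8 and 63.5 TPM in sorted control, and 34.2 and 35 TPM in sorted sg495. It fell in bulk (-0.64 ± 0.06, adjusted p = 0.0349) and in sorted cells (-0.84 ± 0.06, adjusted p = 0.00463), and the difference was 0.20 ± 0.09 (adjusted p = 0.479). Fkbp10, a collagen chaperone, had effects of -0.40 in bulk and -0.86 in sorted cells and a difference of 0.47 ± 0.25 (adjusted p = 0.526), from 0.28 without bulk control replicate 1 to 0.66 without bulk control replicate 2. Mbp and Tinagl1, chosen after their values were seen, passed in both sample types. Mbp, a myelin protein gene, had effects of 1.45 and 1.32 in bulk and sorted cells and a difference of 0.13 ± 0.18. Tinagl1, a matrix protein gene, had effects of 0.95 and 0.99 and a difference of -0.04 ± 0.13, with groups that did not overlap in either sample type.

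**Figure D5:**
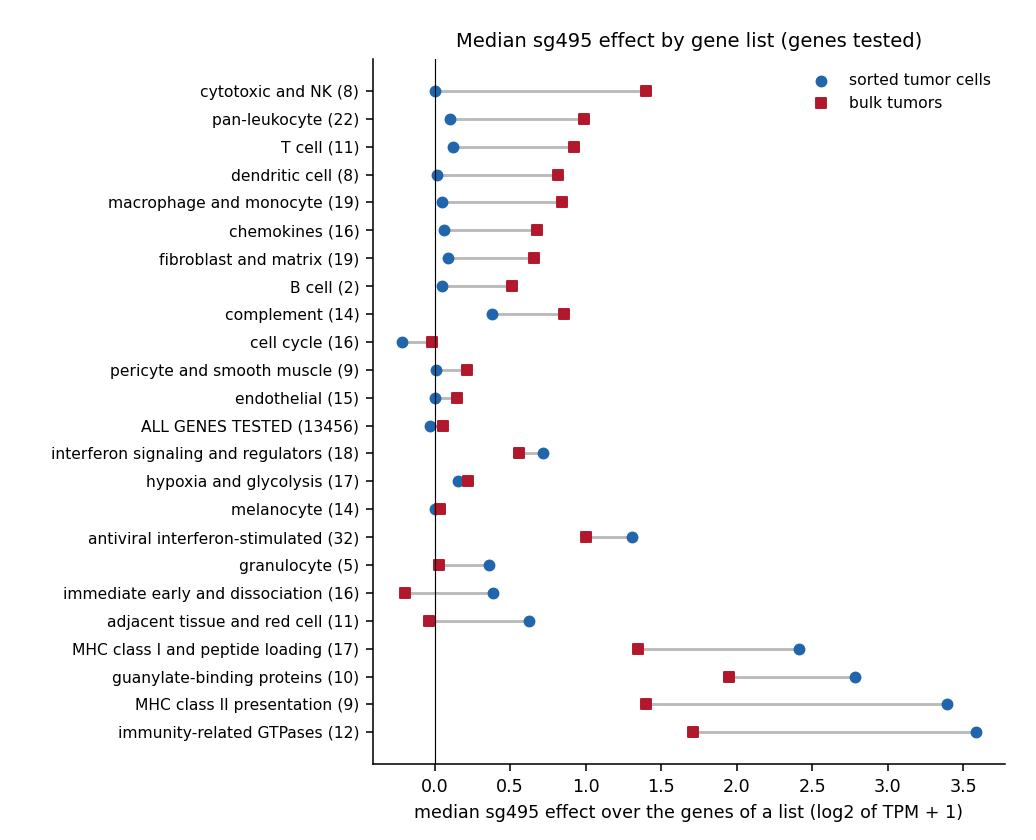
Median sg495 effect over the tested genes of each list, in log2 units, in bulk tumors (squares) and sorted tumor cells (circles), ordered by the median difference. The pan-leukocyte, T cell, cytotoxic, macrophage and dendritic cell lists have bulk medians of 0.82 to 1.40 with sorted medians near 0, whereas class I, class II, GBP and IRG lists have sorted medians of 2.41 to 3.59 above their bulk medians of 1.34 to 1.95. Only 8 of 16 cytotoxic, 11 of 26 T cell and 8 of 14 dendritic cell genes were tested. Several cytotoxic genes reached that level mainly through bulk sg495. Without the level filter the median differences of these lists were 0.97, 0.80 and 0.67.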

How the data were processed

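Poly(A)-selected, single-end RNA libraries were used. Per the labels and methods, the authors trimmed reads with cutadapt 2.3, aligned them to mm10 with STAR 2.7.0d and quantified Ensembl genes with RSEM 1.3.1. They deposited 1 table of TPM for 47643 genes and 23 libraries. TPM do not keep depth, so no counting interval could be given, and the authors' count test was not repeated.

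The deposited TPM were taken without further scaling and put on the log2(TPM + 1) scale. Genes averaging 1 TPM or more in the 8 libraries were fitted with 1 mean per group in limma 3.58.1 (R 4.3.3; lmFit, eBayes with a trend). Tests are 2-sided with Benjamini-Hochberg adjustment over 13456 genes, and the procedure was checked on simulated data. Calls need an adjusted p below 0.05 and 1.5-fold. The genes of the text are the called genes, filled up (none was eligible) to 8 per direction by lowest p at 1.5-fold or more that are not small RNAs or unnamed models, with groups that do not overlap in the sample type of the larger effect, plus list members and the genes the study names. The comparison and the 24 lists (387 entries, 323 of 386 distinct genes tested) were chosen with earlier results of these data known. Of 3 symbols with 2 identifiers the higher was used. Gene positions came from GENCODE M21 (99.1% of genes matched). Replicate numbers were not treated as pairs. Deviations between replicates correlated at -0.121 to 0.0329 between groups. These values cannot tell whether libraries with the same number shared a tumor or animal. Alternatives were another pseudocount, filters, scalings, a replicate block, a fit of 18 libraries, no trend, no fold threshold and each library left out. IgG and anti-PD1 libraries were not used. Promoters came from RefSeq, and tables and figures were made with Python 3.11.15, pandas 2.3.3 and matplotlib 3.10.9. Results for some of these genes are left out of the text.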

Additional observations from a re-analysis of the deposited data

Results flagged for a closer look

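For 2 genes the sg495 effect in bulk tumors differed from that in sorted tumor cells past the test across all genes, and both encode small RNAs. Mir677 (chr10:128085286-128085363) was at 45.7 and 47.8 TPM in sorted sg495 and at 0 TPM in the other 6 libraries, a log2 difference of -5.58 ± 0.26 (limma, adjusted p = 0.00114). Gm24837, a small nucleolar RNA gene (chr4:41211502-41211582), was at 11 and 12 TPM in sorted control and at 0 TPM elsewhere, a difference of 3.64 ± 0.31 (adjusted p = 0.0371). Each reached the level for testing only through the group that also makes its difference, so its place among the genes tested was not independent of the result. The libraries were poly(A)-selected and both genes are short, so few reads can give a high TPM. The part of this in the values was not tested. Groups of 2 libraries are too small for a test of single outlying libraries.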

How the results depend on the processing

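Genes past the test in the larger and smaller direction numbered 0 and 0 with a pseudocount of 0.1, 5 and 2 without a filter, 0 and 1 at 5 TPM, 1 and 1 after median-of-ratios scaling, 0 and 1 after quantile normalization, 10 and 8 with 18 libraries and 4 and 2 without a trend. With 1 library left out they ranged from 0 to 3 and from 1 to 5. With a replicate block they were 0 and 1. The numbers share no stated animal or day, and the cause of these changes was not tested. With a pseudocount of 0.1 the medians were 1.73 for cytotoxic, -0.62 for antiviral, -3.30 for class II and -2.95 for IRG genes. Without a filter they were 0.97 for cytotoxic and -1.54 for class II genes, and at 5 TPM -2.93 for class II. With 1 library left out, medians ranged from 0.63 to 1.19 (pan-leukocyte), 0.87 to 1.75 (cytotoxic), -0.58 to 0.013 (antiviral), -1.42 to -0.60 (class I) and -2.47 to -1.65 (class II). In TPM, 12 differences changed sign, namely Cd74 (262), H2-Aa (139), H2-Eb1 (103), H2-Ab1 (111), H2-DMa (9.77), Psmb8 (4.13), Irf1 (3.34), Gbp2 (34.2), Igtp (53.7), Tgtp2 (3.31 TPM), C4b (3.30 TPM) and Nr2f6 (-1.41). The difference of Nr2f6 was also at -0.037 after quantile normalization, and from -0.00342 to 0.18 with 1 library left out. Where a group was left with 1 library, that library was assumed to vary like the other groups. Depth is unknown from TPM, which limits what genes near 0 can show.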
